A study of Mus musculus with 6 samples.

Results

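The transcripts of the mitochondrial genome were examined in LSECs, the sinusoidal endothelial cells that line the liver's capillaries. They were chosen as the rows of the deposited gene table whose symbol starts with mt-. That rule gave 13 of 34745 rows, all of them protein-coding and all on the mitochondrial chromosome. The mitochondrial ribosomal and transfer RNA genes are not analysed here. Of the 6 libraries, 3 were labelled Tgfbr2 ECKO, an endothelium-specific knockout of the type II TGF-beta receptor gene Tgfbr2, and 3 came from Tgfbr2f/f (f/f) littermates, which the sample titles call WT. Mice of both genotypes had been given CCl4, a hepatotoxin used to cause liver fibrosis, by intraperitoneal injection 2 times a week for 6 weeks. The sources used here do not give the promoter that drives the knockout, the animals' age and sex, the way LSECs were isolated or whether the 6 libraries stem from 6 different mice, so p-values measure the spread between these libraries.

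Mitochondrial DNA is a small circle inside the organelle. Both of its strands are copied into long RNAs that span many genes, and enzymes then cut these RNAs apart, mostly at the transfer RNAs that lie between the coding genes. The proteins it encodes are core subunits of the respiratory chain and ATP synthase. Complex I (the mt-Nd genes) takes electrons from NADH, complex III (mt-Cytb) passes them to cytochrome c, complex IV (mt-Co1 to mt-Co3) hands them to oxygen, and ATP synthase (mt-Atp6 and mt-Atp8) makes ATP. All other subunits, and the enzymes that copy, cut and translate mitochondrial RNA, come from nuclear genes. Of the 13 members, 12 are on the plus strand of the table's coordinates and mt-Nd6 alone is on the minus strand.

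Neighbouring members overlap, which bears on how reads can be assigned between them. The following stretches, from the GENCODE M21 transcripts (GRCm38, plus strand of the mitochondrial chromosome), show the overlaps, with the bases that belong to both genes in capitals.
mt-Atp8/mt-Atp6 (chrM:7915-7981): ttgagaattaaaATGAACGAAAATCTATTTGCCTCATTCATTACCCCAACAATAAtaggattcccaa
mt-Nd4l/mt-Nd4 (chrM:10155-10185): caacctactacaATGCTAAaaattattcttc
mt-Nd5/mt-Nd6 (chrM:13540-13577): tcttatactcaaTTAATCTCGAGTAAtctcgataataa
The shared stretch was 43 bases for mt-Atp8 and mt-Atp6, 7 bases for mt-Nd4l and mt-Nd4, and 14 bases for mt-Nd5 and mt-Nd6, which lie on opposite strands. Each of the first 2 pairs is known to be carried on a single mRNA. mt-Atp6 and mt-Co3 also share 1 base. Whether reads were counted by strand is not stated in the sources used here.

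Several members end before their stop codon is complete, which is a known feature of this genome: the tail of A bases added to the RNA supplies the missing letters. The last bases of those members follow, with the base left over after the last whole codon in capitals.
mt-Co3 end (chrM:9373-9390): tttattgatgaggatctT
mt-Nd4 end (chrM:11527-11544): ttacaggcctgacaataT
mt-Cytb end (chrM:15271-15288): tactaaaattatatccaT
For these mRNAs the A tail is thus part of the reading frame. Per the labels' protocols, libraries were built from mRNA taken out of total RNA, by a means not stated there.

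Part of the mitochondrial genome also stands as a nuclear copy on chromosome 1, and the table holds 7 rows inside it, each annotated as an unprocessed pseudogene. Aligned without gaps to the members, 5 of the 7 copies had 0 mismatches: Gm28661 to mt-Co2 over 681 bases, Gm10925 to mt-Atp6 over 678, Gm28437 to mt-Co3 over 783, Gm10222 to mt-Nd4l over 294 and Gm28439 to mt-Nd4 over 876. The remaining copies differed only at one end, as the first 24 bases of each show, with the differing bases in capitals (the copies lie on the minus strand of chromosome 1).
mt-Co1 (chrM:6381-6404): ggTCtAAcCggaAttgttttatcc
Gm29216 (chr1:24616174-24616197): ggATtGGcAggaTttgttttatcc
mt-Nd3 (chrM:9459-9482): atTaacctgtacactgttatcttc
Gm28438 (chr1:24613096-24613119): atCaacctgtacactgttatcttc
Counted from the first base of mt-Co1, Gm29216 differed by T1056A, C1057T, A1059G, A1060G, C1062A and A1066T, and then matched over 479 bases to the end of the gene. Gm28438 differed from mt-Nd3 by T3C alone. A read from inside such a run cannot be placed by sequence, so counts of these 7 members and of their copies can share reads.

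Library totals ran from 17171850 to 18671217 counts in the libraries labelled ECKO and from 17632271 to 25062755 in f/f. Tgfbr2 stood at 487 to 511 CPM in the libraries labelled ECKO and at 387 to 452 CPM in f/f (log2 fold change 0.22, SE 0.10, edgeR adjusted p = 0.228), so the library labels were not borne out by this gene's count. A transcript that lacks the deleted part would still be counted, and gene-level counts cannot check the deletion. CPM means counts per 1000000 after TMM scaling of library size, and adjusted p-values come from edgeR's quasi-likelihood test with Benjamini-Hochberg adjustment over all 13692 tested genes. The 12 LSEC markers took 3.29% to 3.88% of the counts outside the mitochondrial genes in the libraries labelled ECKO and 3.28% to 3.57% in f/f. Gene by gene, 10 of the 12 had a log2 fold change above 0 (median 0.175), against 51.4% of all genes. By adjusted p edgeR called 1 higher, against 1.24% of all genes, and 4 were higher at an unadjusted p under 0.05, against 10.4%. The 15 hepatocyte markers, a cell type rich in mitochondria, took 0.138% to 0.284% in the libraries labelled ECKO and 0.161% to 0.249% in f/f. Though these summed shares overlapped, 11 of the 15 had a log2 fold change above 0 (median 0.45), against 51.4% of all genes. By adjusted p edgeR called 0 of them, and 2 were higher and 0 lower at an unadjusted p under 0.05, against 10.4% and 13.1% of all genes. The 13 stellate cell markers took 0.0829% to 0.117% in the libraries labelled ECKO and 0.214% to 0.396% in f/f. The 10 Kupffer cell markers took at most 0.0116% in the libraries labelled ECKO and 0.0146% in f/f, and no marker on these lists was at 0 in all libraries. Of the 13 stellate cell markers 0 had a log2 fold change above 0, and edgeR called 8 lower by adjusted p, against 2.79% of all genes. Lymphocyte markers (8 genes), at up to 0.000566% in the libraries labelled ECKO against 0.00247% in f/f, were also lower in sum. So were cholangiocyte markers (5 genes), at up to 0.0230% in the libraries labelled ECKO against 0.0807% in f/f. The 5 erythroid markers took at most 0.00173% in the libraries labelled ECKO and 0.00207% in f/f, but went different ways. Of these edgeR called 1 higher, Alas2 (log2 fold change 2.22, adjusted p = 0.0108), against 1.24% of all genes. The other 4 were lower at an unadjusted p under 0.05, against 13.1% of all genes. The part of these cell types in the results was not tested. In bulk RNA, fewer cells of a type and less RNA per cell cannot be told apart.

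The mitochondrial mRNAs took 32.4%, 19.7% and 23.7% of all counts in the libraries labelled ECKO, against 23.5%, 14.2% and 11.5% in f/f. The groups overlapped, since f/f library 1 lay above ECKO library 2 and close to ECKO library 3. The means were 25.3% ± 6.47 in the libraries labelled ECKO and 16.4% ± 6.33 in f/f (SD, n = 3 each), a difference of 8.86 percentage points that was near the spread between libraries (exact permutation p = 0.2, two-sided; 3 libraries against 3 cannot go below 0.1). Counting error was far smaller: the widest 95% Wilson interval of any of the 6 shares spanned 0.0432 percentage points. The single gene mt-Co1 took 10.2%, 5.92% and 7.35% of all counts in the libraries labelled ECKO, against 8.24%, 4.76% and 3.97% in f/f.

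**Figure D1:**
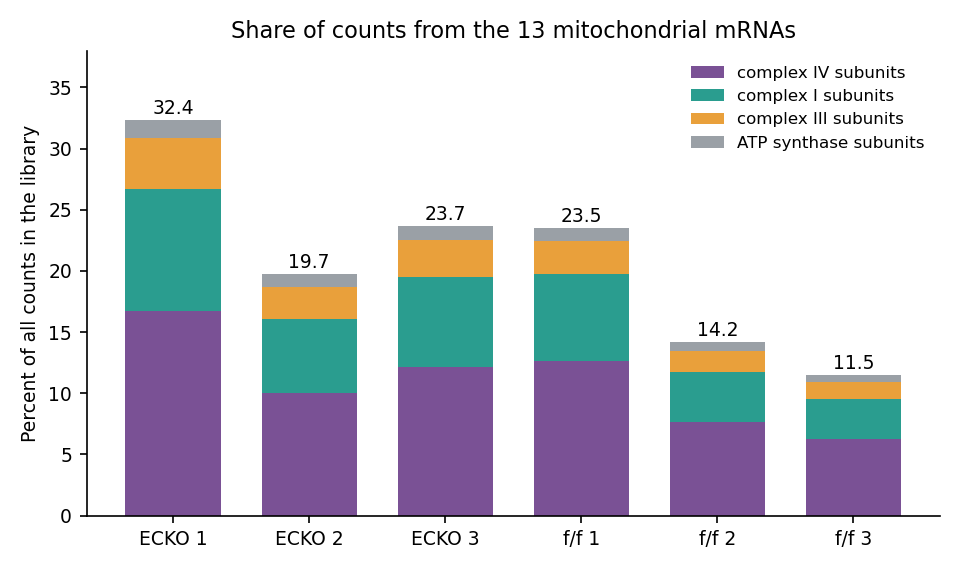
Percent of each library's counts that fell in the 13 mitochondrial mRNAs (y axis), stacked by the complex their proteins join, for the 3 libraries labelled ECKO and the 3 f/f libraries (x axis; each bar is 1 library). ECKO library 1 is the highest at 32.4% and f/f library 3 the lowest at 11.5%, and f/f library 1 at 23.5% stands among the libraries labelled ECKO.

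Gene by gene, all 13 members passed the filter on low counts and all 13 had a positive log2 fold change of ECKO over f/f, from 0.66 for mt-Nd1 to 1.15 for mt-Nd3, with a median of 0.91. The median over all genes tested was 0.01, and 51.4% of them were above 0. No member passed the threshold of 0.05 on edgeR's adjusted p (lowest 0.133, for mt-Atp6), against 1.24% of all genes called higher, 2.79% called lower and 4.03% called in either direction. Without adjustment 7 of the 13 had an edgeR p under 0.05, against 10.4% of all genes on the higher side. DESeq2 called 3 of them higher (mt-Nd2, mt-Nd3 and mt-Atp6, where it called 3.43% of all genes higher) and limma-voom called 0, against 0.847% of all genes called higher by it. The groups did not overlap for 3 of the 13, again mt-Nd2, mt-Nd3 and mt-Atp6, against 15.7% of all genes that were separated and higher. Members share precursor RNAs and libraries, so the 13 values are not independent of each other.

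Single libraries moved these values widely. Without f/f library 1 the median log2 fold change was 1.42, and 9 of the 13 passed (all but mt-Nd1, mt-Co1, mt-Nd4l and mt-Nd6), against 1.76% of all genes called higher in that fit. Without ECKO library 1 the median was 0.61 and edgeR called 0, with 0 at an unadjusted p under 0.05; in that fit only 0.0995% of all genes were called higher, so the 0 says little about the members. Each of the other 4 omissions also gave 0 calls, with medians of 0.69 to 1.15. In these fits edgeR called only 36 to 78 genes higher of 13824 to 14067 tested, so these 0 calls say little about the members either. Under library totals with no TMM scaling, where the median of all genes was -0.22, the members' median was 0.69 and all 13 remained above 0.

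**Figure D2:**
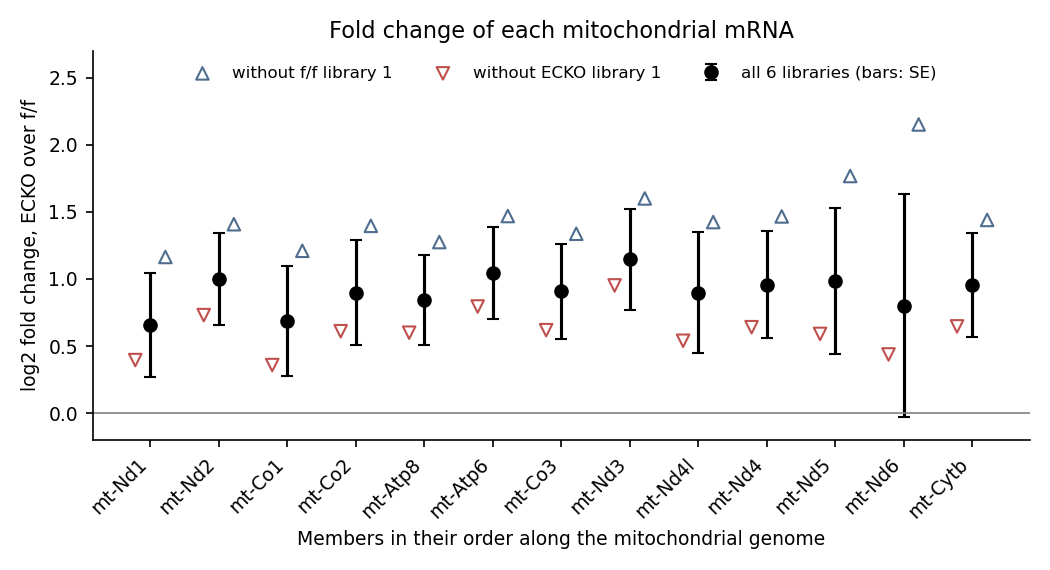
log2 fold change of ECKO over f/f (y axis) for each of the 13 mitochondrial mRNAs in their order along the genome (x axis); filled points are from all 6 libraries with SE bars, open triangles from the fits without f/f library 1 (pointing up) or ECKO library 1 (pointing down). Every point is above 0, the values run from 0.66 to 1.15 with all libraries, and all 13 are higher without f/f library 1 and lower without ECKO library 1; only the SE bar of mt-Nd6 reaches 0.

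Complex I is served by 7 members. mt-Nd1 (chrM:2751-3707), a subunit of the membrane arm next to the quinone site, had 22659, 12448 and 15743 CPM in the libraries labelled ECKO, against 17068, 8743 and 6466 CPM in f/f (log2 fold change 0.66, SE 0.39, adjusted p = 0.346). mt-Nd2 (chrM:3914-4951), a proton-pumping subunit, had 28592, 16241 and 18735 CPM in the libraries labelled ECKO, against 15691, 9271 and 6787 CPM in f/f (1.00, SE 0.34, adjusted p = 0.142). For mt-Nd2 the lowest library labelled ECKO lay just above the highest f/f library, whereas for mt-Nd1 f/f library 1 lay above 2 of the libraries labelled ECKO. mt-Nd3 (chrM:9459-9806), a small subunit whose loop moves between states of the enzyme, had 3387, 1982 and 2681 CPM in the libraries labelled ECKO, against 1852, 1110 and 670 CPM in f/f (1.15, SE 0.38, adjusted p = 0.136). Its groups did not overlap either, though the gap was narrow.

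mt-Nd4 (chrM:10167-11544), another proton-pumping subunit, had 34823, 17815 and 21966 CPM in the libraries labelled ECKO, against 20330, 10073 and 8031 CPM in f/f (log2 fold change 0.96, SE 0.40, adjusted p = 0.207). Its neighbour mt-Nd4l (chrM:9877-10173), which shares the mRNA, had 9696, 3986 and 6420 CPM in the libraries labelled ECKO, against 5757, 2834 and 2188 CPM in f/f (0.90, SE 0.45, adjusted p = 0.281). In both, f/f library 1 stood above ECKO library 2. mt-Nd5 (chrM:11742-13565), the subunit at the far end of the membrane arm, had 20779, 8523 and 12639 CPM in the libraries labelled ECKO, against 12895, 3959 and 4302 CPM in f/f (0.99, SE 0.54, adjusted p = 0.319). Relative to the mean, its f/f libraries differed more among themselves than those of any other plus-strand member, with an SD of 5063 CPM around a mean of 7052.

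mt-Nd6 (chrM:13552-14070), the complex I subunit from the minus strand, was by far the least abundant member. It had 209, 47.9 and 175 CPM in the libraries labelled ECKO (3138, 825 and 3049 counts), against 182, 36.9 and 28.2 CPM in f/f (4360, 752 and 681 counts). ECKO library 2 lay with f/f libraries 2 and 3 at the low level, and f/f library 1 lay with ECKO libraries 1 and 3 at the high level. The log2 fold change was 0.80 with an SE of 0.83 (adjusted p = 0.593), so no difference was detectable between the groups. In human cells the ND6 mRNA is known to lack an A tail.

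Complex III has 1 mitochondrial subunit, mt-Cytb (chrM:14145-15288), which holds the haem groups of cytochrome b. It had 50097, 25433 and 32516 CPM in the libraries labelled ECKO, against 29078, 14724 and 11970 CPM in f/f (log2 fold change 0.95, SE 0.39, adjusted p = 0.197). Only f/f library 1 reached into the range of the libraries labelled ECKO.

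Complex IV has 3. mt-Co1 (chrM:5328-6872), the catalytic subunit with the oxygen-binding site, had 122996, 59109 and 78647 CPM in the libraries labelled ECKO, against 86310, 41276 and 34272 CPM in f/f (log2 fold change 0.69, SE 0.41, adjusted p = 0.348). mt-Co2 (chrM:7013-7696), which accepts electrons from cytochrome c, had 34275, 17461 and 23348 CPM in the libraries labelled ECKO, against 21131, 10930 and 8190 CPM in f/f (0.90, SE 0.39, adjusted p = 0.225). mt-Co3 (chrM:8607-9390), a core subunit without metal centres, had 43217, 23118 and 28360 CPM in the libraries labelled ECKO, against 25365, 13828 and 11302 CPM in f/f (0.91, SE 0.35, adjusted p = 0.180). In each of the 3 the groups overlapped through f/f library 1, which lay above ECKO library 2 and, for mt-Co1, also above ECKO library 3.

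ATP synthase has 2. mt-Atp6 (chrM:7927-8607), the subunit that forms the proton path, had 5691, 3310 and 3915 CPM in the libraries labelled ECKO, against 3144, 1762 and 1366 CPM in f/f (log2 fold change 1.04, SE 0.34, adjusted p = 0.133). mt-Atp8 (chrM:7766-7969), a small membrane subunit encoded just before it, had 12302, 7250 and 8450 CPM in the libraries labelled ECKO, against 7852, 4276 and 3477 CPM in f/f (0.84, SE 0.34, adjusted p = 0.191). The groups did not overlap for mt-Atp6, while for mt-Atp8 f/f library 1 lay above ECKO library 2.

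Levels can be compared between genes only per length, for which the authors' FPKM values (fragments per kilobase of gene and 1000000 counts) were used. mt-Co1 was the highest member in each library, with 50732 ± 14247 FPKM in the libraries labelled ECKO and 36620 ± 14675 FPKM in f/f (SD, n = 3 each). mt-Atp8 came next in each library, with 41511 ± 7700 FPKM in the libraries labelled ECKO and 26893 ± 8800 FPKM in f/f. mt-Nd6 was the lowest in each, with 248 ± 135 FPKM in the libraries labelled ECKO and 160 ± 152 FPKM in f/f. The other members of the plus strand, which are cut from shared precursor RNAs, lay in between. The highest of the 12 plus-strand members exceeded the lowest by 9.53, 8.19 and 8.86 times in the libraries labelled ECKO and by 12.1, 12.3 and 11.5 times in f/f. That span did not overlap between the groups (8.86 ± 0.669 in the libraries labelled ECKO and 11.98 ± 0.410 in f/f, exact permutation p = 0.1, two-sided, the smallest possible). The lowest member was mt-Atp6 in ECKO libraries 1 and 3 and f/f library 1. It was mt-Nd5 in ECKO library 2 and f/f library 2, and mt-Nd3 in f/f library 3, so the span is not the ratio of a single pair. It was not computed with the counts of the nuclear copies added. How often such spans fail to overlap among other genes was not examined.

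The 2 genes of a shared mRNA did not have the same FPKM. mt-Atp8 exceeded mt-Atp6 by 7.22, 7.31 and 7.20 times in the libraries labelled ECKO and by 8.34, 8.10 and 8.50 times in f/f. mt-Nd4l and mt-Nd4 were closer, at ratios of 1.29, 1.04 and 1.36 in the libraries labelled ECKO and 1.31, 1.31 and 1.26 in f/f. With the counts of the nuclear copies added to their mitochondrial partners, mt-Atp8 still exceeded mt-Atp6 per base by 3.98, 3.64 and 4.19 times in the libraries labelled ECKO and 4.07, 3.68 and 3.77 times in f/f, and the 2 groups then overlapped. The part of read assignment across the 43 shared bases in this ratio was not tested.

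To compare the pattern apart from the common level, each member was expressed as a percent of the 13 members' summed counts. mt-Co1 made up 31.6%, 30.0% and 31.0% of mitochondrial counts in the libraries labelled ECKO, against 35.0%, 33.6% and 34.6% in f/f. Its means of 30.9% ± 0.803 in the libraries labelled ECKO and 34.4% ± 0.715 in f/f (SD, n = 3 each) differed by -3.50 percentage points, more than 4 times either SD. mt-Cytb made up 12.9%, 12.9% and 12.8% of mitochondrial counts in the libraries labelled ECKO, against 11.8%, 11.99% and 12.1% in f/f, with means of 12.9% ± 0.0537 in the libraries labelled ECKO and 11.95% ± 0.151 in f/f. Both shares separated the groups, mt-Co1 downward and mt-Cytb upward, although their CPM values did not.

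The shares of 3 more members also separated the groups. mt-Nd1 made up 5.83%, 6.33% and 6.21% of mitochondrial counts in the libraries labelled ECKO, against 6.92%, 7.12% and 6.53% in f/f. mt-Nd4 made up 8.96%, 9.06% and 8.66% in the libraries labelled ECKO, against 8.24%, 8.20% and 8.11% in f/f. mt-Atp6 made up 1.46%, 1.68% and 1.54% in the libraries labelled ECKO, against 1.27%, 1.43% and 1.38% in f/f. Thus 5 of 13 shares did not overlap between the groups, 2 of them lower and 3 higher in the libraries labelled ECKO. For comparison, 29.5% of the tested nuclear genes did not overlap in their share of the counts outside the mitochondrial genes. For each of the 5 the exact permutation p was 0.1 (two-sided, the smallest possible), or 0.26 adjusted over the 13, and shares of 1 sum are not independent of each other. With the copies' counts added to their partners, mt-Atp6 no longer separated the groups (2.52%, 3.17% and 2.52% in the libraries labelled ECKO, against 2.47%, 2.95% and 2.91% in f/f), while mt-Nd1, mt-Co1, mt-Nd4 and mt-Cytb still did.

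The other 8 members overlapped. mt-Nd2 averaged 7.67% ± 0.511 of mitochondrial counts in the libraries labelled ECKO and 6.92% ± 0.596 in f/f (SD, n = 3 each). mt-Nd3 averaged 0.979% ± 0.0963 in the libraries labelled ECKO and 0.777% ± 0.116 in f/f. In both, only f/f library 2 reached into the range of the libraries labelled ECKO. mt-Co2 averaged 8.97% ± 0.210 in the libraries labelled ECKO and 8.58% ± 0.315 in f/f, and mt-Co3 11.3% ± 0.349 in the libraries labelled ECKO and 10.98% ± 0.611 in f/f. mt-Atp8 averaged 3.39% in both groups (± 0.266 in the libraries labelled ECKO and ± 0.181 in f/f), and mt-Nd4l 2.35% ± 0.282 in the libraries labelled ECKO and 2.28% ± 0.0657 in f/f. Without f/f library 2, the shares of mt-Nd2, mt-Co2 and mt-Nd3 also separated, giving 8 of 13. Fewer libraries separate more easily, and the share of all genes was not computed for that setting, so the rise cannot be weighed. Across the 13 members the log2 ratio of shares ran against the mean FPKM (Spearman's rho -0.75, n = 13 genes). The same rho was 0.50 with the start position on the genome, -0.47 with GC content and 0.03 with length; these are descriptions over genes that share libraries and 1 total.

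**Figure D3:**
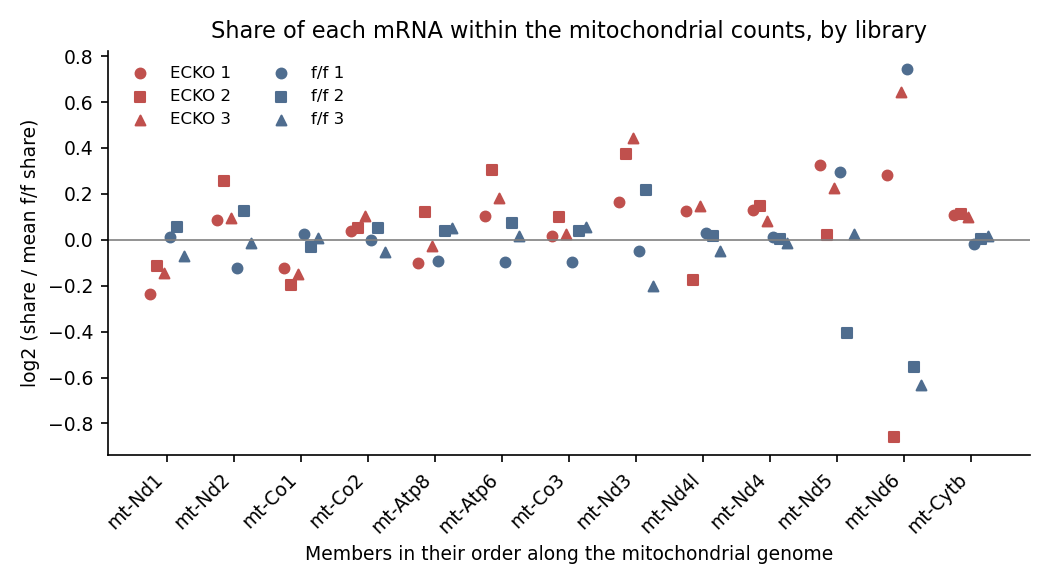
Share of each mRNA within the mitochondrial counts of a library, as log2 of its ratio to the mean f/f share (y axis), for the 13 members in genome order (x axis); each point is 1 library, with the libraries labelled ECKO in red and f/f in blue. The red points of mt-Nd1 and mt-Co1 lie below all blue points and those of mt-Atp6, mt-Nd4 and mt-Cytb above them, while mt-Nd5 and mt-Nd6 spread widely within both groups.

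Ratios between 2 members do not depend on the other 11. Of the 78 possible pairs, 18 had ratios that did not overlap between the groups, and 14 of those 18 held mt-Co1 or mt-Nd1. Each of these 2 genes was lower in the libraries labelled ECKO relative to the same 7 members (mt-Nd2, mt-Co2, mt-Atp6, mt-Co3, mt-Nd3, mt-Nd4 and mt-Cytb), and their ratio to each other overlapped. Every member is in 12 of the pairs, so the pairs are not independent of each other. Ratios between other genes were not examined. For comparison, 29.5% of the tested nuclear genes did not overlap in their share of the counts outside the mitochondrial genes. For every mt-Co1 count there were 0.407, 0.430 and 0.413 mt-Cytb counts in the libraries labelled ECKO, against 0.337, 0.357 and 0.349 in f/f. On the log2 scale that difference was 0.26 (-1.26 ± 0.0409 in the libraries labelled ECKO and -1.53 ± 0.0417 in f/f, SD, n = 3 each; exact permutation p = 0.1, two-sided), and it stayed between 0.24 and 0.28 without each library in turn. mt-Nd2, which follows mt-Nd1 on the genome, had 1.26, 1.31 and 1.19 counts per mt-Nd1 count in the libraries labelled ECKO, against 0.919, 1.06 and 1.05 in f/f. With the copies added, 16 pairs did not overlap, 11 of them with mt-Co1 or mt-Nd1.

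The members were also summed by complex. Complex IV subunits took 51.6%, 50.7% and 51.4% of mitochondrial counts in the libraries labelled ECKO, against 53.8%, 53.8% and 54.3% in f/f. Complex I subunits took 30.9%, 31.0% and 30.9% in the libraries labelled ECKO, against 29.9%, 29.3% and 28.7% in f/f. Neither pair of groups overlapped (exact permutation p = 0.1 for each, two-sided), whereas the ATP synthase subunits, at 4.96% ± 0.376 in the libraries labelled ECKO and 4.75% ± 0.257 in f/f, did (exact permutation p = 0.6). The separation of complexes I and IV held with the copies added. Within complex IV only mt-Co1 had the lower mean share (-3.50 percentage points), while mt-Co2 and mt-Co3 had higher ones (0.388 and 0.367 points), and within complex I mt-Nd1 went the other way from the sum (-0.734 points). The sums therefore do not describe every subunit.

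mt-Nd6 and mt-Nd5 varied along another line. Per 1000000 plus-strand mitochondrial counts, mt-Nd6 had 538, 244 and 690 counts in the libraries labelled ECKO, against 740, 301 and 285 in f/f. mt-Nd5 took 5.35%, 4.33% and 4.98% of mitochondrial counts in the libraries labelled ECKO, against 5.23%, 3.22% and 4.34% in f/f. For both genes the 3 highest libraries were ECKO 1, ECKO 3 and f/f 1, which were also the 3 libraries with the highest mitochondrial share of all counts. Between the groups neither differed beyond the spread (exact permutation p = 1 for mt-Nd6 and 0.5 for mt-Nd5, two-sided). In base content mt-Nd6 was unlike the rest, with 28.1% G and 5.97% C, against 5.88% to 16.1% G and 22.1% to 30.0% C in the plus-strand members.

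The nuclear copies carried many counts. Together they held 1.71%, 1.36% and 1.20% of all counts in the libraries labelled ECKO, against 1.34%, 0.974% and 0.773% in f/f. Gm10925 held fewer counts than mt-Atp6, the gene it matches, in ECKO libraries 1 and 3 and more in the other 4 libraries, with 81.1, 101 and 71.8 counts per 100 mt-Atp6 counts in the libraries labelled ECKO, against 105, 120 and 125 in f/f. These groups did not overlap (84.7 ± 14.99 in the libraries labelled ECKO and 117 ± 10.6 in f/f; exact permutation p = 0.1, two-sided, adjusted over the 7 copies 0.35). Gm28439 had 7.01, 7.72 and 6.25 counts per 100 mt-Nd4 counts in the libraries labelled ECKO, against 7.98, 8.76 and 9.09 in f/f, and did not overlap either. How often ratios between other genes fail to overlap was not examined.

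For the other copies the groups overlapped. Gm28661, Gm28437, Gm28438 and Gm10222 lay between 11.02 and 15.2 counts per 100 partner counts in the libraries labelled ECKO and between 12.2 and 15.7 in f/f, and Gm29216 between 2.19 and 3.36 in the libraries labelled ECKO and between 2.06 and 2.49 in f/f. A match without mismatches therefore went with very different shares, from 6.25 for Gm28439 to 125 for Gm10925. These ratios use the whole partner, of which Gm28439 covers 63.6%, Gm10925 99.6% and Gm29216 31.8%, so they are not on equal terms. Gm28437, which covers 99.9% of mt-Co3 without mismatches, still stood as low as 11.2. No copy passed edgeR's test (adjusted p 0.124 to 0.314). At an unadjusted edgeR p under 0.05, 3 of the 7 were higher (Gm28438, Gm29216 and Gm28437), against 10.4% of all genes. With the copies added to their partners the mitochondrial share was 34.1%, 21.1% and 24.9% in the libraries labelled ECKO, against 24.9%, 15.2% and 12.3% in f/f (exact permutation p = 0.2, two-sided).

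**Figure D4:**
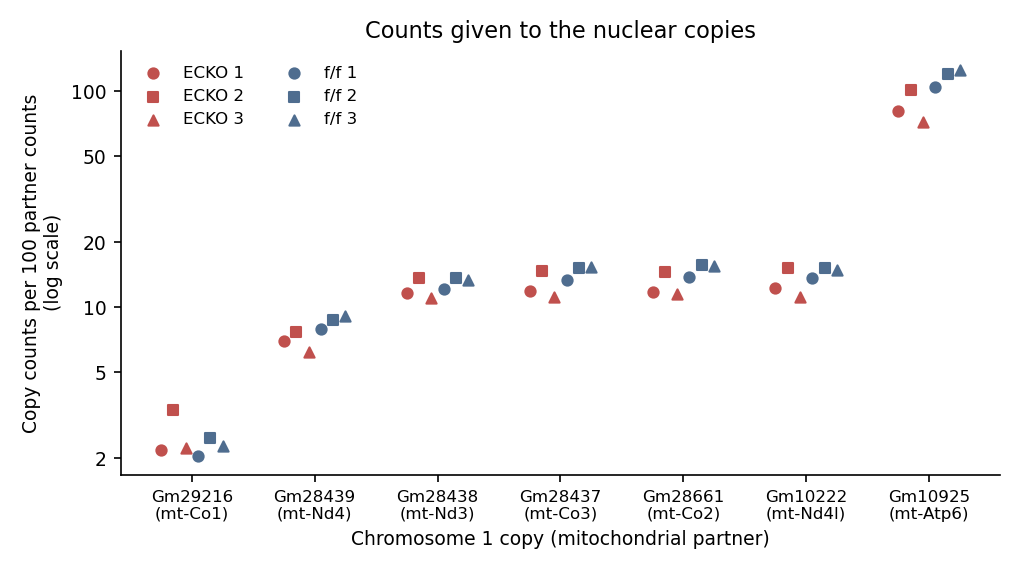
Counts given to each of the 7 nuclear copies on chromosome 1, per 100 counts of the mitochondrial gene it matches (y axis, log scale; copy and partner on the x axis); each point is 1 library, with the libraries labelled ECKO in red and f/f in blue. Gm10925 stands near 100, at 71.8 to 101 in the libraries labelled ECKO and 105 to 125 in f/f, while the copy of mt-Co1 stays at 2.06 to 3.36. The copies cover unequal parts of their partners, from 31.8% for Gm29216 to 99.9% for Gm28437.

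The nuclear genes that serve mitochondrial expression rarely passed the test. Of 298 tested genes on 14 lists, 1 rose and 0 fell by edgeR's adjusted p, or 0.336% against 4.03% of all genes. Their median log2 fold change was 0.19, against 0.01 for all genes and 0.91 for the mitochondrial members, and 81.9% of them were above 0, against 51.4% of all genes. At an unadjusted p under 0.05, 56 were higher (18.8%, against 10.4% of all genes) and 5 lower (1.68%, against 13.1%). DESeq2 called 10 higher (3.36%, against 3.43% of all genes) and 2 lower (0.671%, against 7.58%), and limma-voom called 0. The 10 were Mgme1, Mterf2, Hars2, Ndufb9, Ndufa3, Ndufa5, Ndufv3, Cox7b, Atp5k and Bnip3, and the 2 were Myc and Gdf15. The direction rests on the scaling: under library totals the lists' median was -0.05 where that of all genes was -0.22, and on FPKM it was -0.04 where that of all genes was -0.15. The gene that rose, Mgme1, a nuclease of mitochondrial DNA replication, had 49.7, 43.8 and 44.8 CPM in the libraries labelled ECKO, against 35.0, 32.3 and 34.3 CPM in f/f (log2 fold change 0.45, SE 0.10, adjusted p = 0.0498). It missed the threshold in 12 of 15 alternatives, among them the omission of any 1 library.

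For transcription of mitochondrial DNA, 10 genes were tested. Of these edgeR called none (2 higher at an unadjusted p under 0.05), whereas DESeq2 called Mterf2 higher. The 4 with the smallest p were the termination-factor relatives Mterf2, Mterf3 and Mterf1a, with log2 fold changes of 1.02, 0.33 and 0.57, and the polymerase Polrmt, with 0.18 (adjusted p 0.0728 to 0.383). Mterf2 had 3.33, 4.07 and 3.78 CPM in the libraries labelled ECKO, against 1.55, 1.67 and 2.28 CPM in f/f. Besides Mgme1, the 20 genes of mitochondrial DNA replication and upkeep held Endog, a mitochondrial nuclease, at 0.76, and the nucleoside kinases Dguok and Tk2 at 0.33 and 0.26 (adjusted p 0.136 to 0.180). At an unadjusted edgeR p under 0.05, 4 of the 20 were higher and 1 lower, which was Lig3 at -0.51 (adjusted p = 0.213). Of all genes, 10.4% were higher and 13.1% lower by that unadjusted test.

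Of 37 genes of mitochondrial RNA processing, modification and decay edgeR and DESeq2 called none (3 higher and 1 lower at an unadjusted edgeR p under 0.05). Ftsj2, a methyltransferase of mitochondrial ribosomal RNA, had a log2 fold change of 0.65, the RNA-binding Fastkd3 0.50, the tRNA modifier Gtpbp3 0.29 and the pseudouridine synthase Pus1 -0.54 (adjusted p 0.104 to 0.203). Of the 22 mitochondrial aminoacyl-tRNA synthetases and related genes edgeR called none (2 higher at an unadjusted p under 0.05), whereas DESeq2 called Hars2 higher. Hars2 and Tars2, which charge the tRNAs of histidine and threonine, had log2 fold changes of 0.38 and 0.39, with Gatc at 0.23 and Pars2 at 0.62 (adjusted p 0.0783 to 0.305). Of 15 translation factors edgeR and DESeq2 called none (1 higher at an unadjusted edgeR p under 0.05), with the ribosome recycling factor Mrrf at 0.36, Mtrf1l at 0.32, Gfm2 at 0.23 and Mtfmt at 0.27 (adjusted p 0.152 to 0.357). For these unadjusted counts, the shares of all genes were 10.4% higher and 13.1% lower.

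The 77 mitochondrial ribosomal protein genes had log2 fold changes with a median of 0.25, and 70 of them were above 0. Neither edgeR nor DESeq2 called any, and 17 were higher and 0 lower at an unadjusted edgeR p under 0.05, against 10.4% and 13.1% of all genes. Under library totals with no TMM scaling their median was 0.007, where that of all genes was -0.22. Mrpl52, Mrps25, Mrpl39 and Mrpl32 had the smallest p, with log2 fold changes of 0.47, 0.47, 0.31 and 0.46 (adjusted p 0.128 to 0.147). Cytosolic ribosomal protein genes, for comparison, had a median of -0.05 over 80 tested genes.

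Nuclear subunits of the respiratory chain lay between the mitochondrial members and the bulk of genes. Medians were 0.26 for 36 subunits of complex I, 0.14 for 4 of complex II, 0.19 for 9 of complex III, 0.31 for 11 of complex IV and 0.18 for 17 of ATP synthase, and edgeR called none of the 77. DESeq2 called 6 of them higher, against 3.43% of all genes. These were Ndufb9, Ndufa3, Ndufa5 and Ndufv3 of complex I, Cox7b of complex IV and Atp5k of ATP synthase. edgeR called Ndufa5 higher with no filter and without f/f library 1. At an unadjusted edgeR p under 0.05, 13, 0, 3, 3 and 3 of the subunits, in the order of the medians above, were higher and 0 lower. Of all genes, 10.4% were higher and 13.1% lower by that test. Complex II, which has no mitochondrially encoded subunit, was led by Sdhb at 0.23, Sdhc at 0.18, Sdha at 0.10 and Sdhd at 0.05 (adjusted p 0.263 to 0.866).

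In complex I, Ndufv3, Ndufa3, Ndufa5 and Ndufs8 had log2 fold changes of 0.45, 0.51, 0.67 and 0.35 (adjusted p 0.0604 to 0.0930). In complex III, Uqcr10, Uqcr11, Uqcrb and Cyc1 had 0.45, 0.47, 0.34 and 0.26 (adjusted p 0.0984 to 0.253), and in complex IV, Cox7b, Ndufa4, Cox6c and Cox6a1 had 0.41, 0.48, 0.32 and 0.40 (adjusted p 0.0823 to 0.220). In ATP synthase, Atp5k, Atp5j, Usmg5 and Atp5e had 0.72, 0.35, 0.49 and 0.33 (adjusted p 0.0673 to 0.245). These adjusted p-values are from edgeR.

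**Figure D5:**
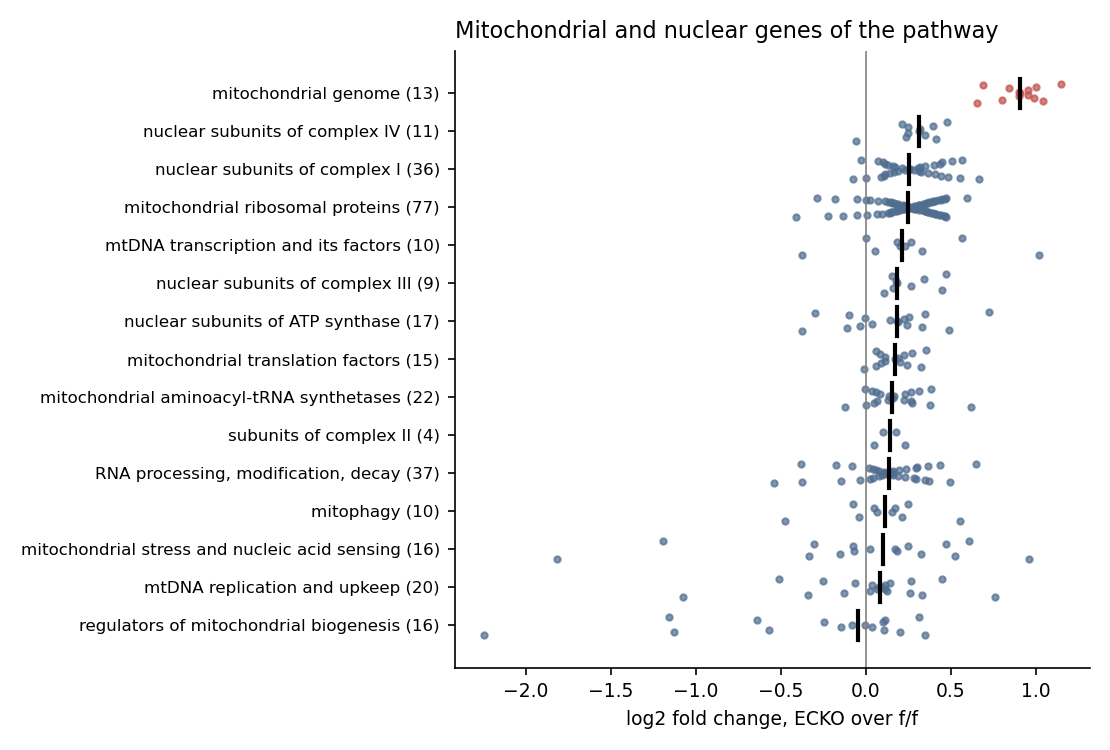
log2 fold change of ECKO over f/f (x axis) for the 13 mitochondrial members (red, top) and for the tested genes of each nuclear list (blue; list and number of genes on the y axis), with a black bar at each median. The mitochondrial median of 0.91 lies to the right of the medians of all nuclear lists, which run from -0.04 for regulators of biogenesis to 0.31 for complex IV.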

How the data were processed

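RNA from LSECs was sequenced in 6 libraries, 3 per genotype. Per the file headers, the authors deposited whole-number counts and FPKM for each gene; for the 13 members FPKM equalled the count divided by length and library total to within a relative difference of 6.49e-07. The submitters' processing notes name HISAT2 2.0.4, StringTie 1.3.0 and the builds mm10 and GRCm38.p4, with no role; the sources used here do not give the counter, the annotation release or the treatment of reads with several positions. Coordinates of the 13 members and 7 copies equalled those of GENCODE M21 (GRCm38), from whose transcripts sequences were read.

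Counts were tested with edgeR 4.0.16 in R 4.3.3 (TMM, filterByExpr with a minimum count of 10 and total of 15, robust quasi-likelihood F-test, genotype as the only term, two-sided), which was checked on simulated counts. SE is the absolute log2 fold change over the square root of F. Single values were compared with exact permutation tests (SciPy 1.17.1). Alternatives used DESeq2 1.42.0, limma 3.58.1, other scalings, no filter, log2(FPKM + 1) for genes with a mean FPKM of at least 0.5, a replicate block and omission of each library; adding the copies to their partners was chosen after seeing the data. The planned ratio of ribosomal RNA to mRNA was not analysed here. Named nuclear genes are the 4 with the smallest p per list. The members and lists were chosen with earlier results of these data known. Intervals cover counting error only.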

Additional observations from a re-analysis of the deposited data

How the results depend on the processing

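The 15 alternatives left all 13 members' log2 fold changes above 0, and the difference in mitochondrial share stayed positive (5.3 to 12.43 percentage points without each library in turn, 12.99 on summed FPKM), with no exact permutation p below 0.2; the complex IV share stayed lower in the libraries labelled ECKO. With all libraries and genotype as the only term, edgeR called 0 members under each scaling and filter. Members called numbered 3 with DESeq2, 7 with edgeR and a replicate block, and 0 to 9 without each library in turn. Members whose share did not overlap numbered 5, and 5 to 8 without each library in turn. For these omissions, where groups separate more easily, the share of all genes was not computed. The count of all genes called, 552, became 1272 with library totals (63 higher and 1209 lower, against 170 and 382), 481 on FPKM (37 higher and 444 lower), 1508 with DESeq2 and 307 with limma-voom, and 35 to 1012 without each library in turn. Nuclear genes called numbered 1 (Mgme1, higher), 1 with library totals and 1 on FPKM (Gdf15 in both, lower), and 0 with DESeq2 size factors in edgeR, 0 with library totals and TMM without the mitochondrial genes, 0 with limma-voom, 3 with no filter, 12 with DESeq2 and 0 to 1 without each library in turn. Same-numbered libraries of the genotypes deviated together weakly or not at all (correlations 0.095, 0.152 and -0.052). With only 3 pairs, these correlations cannot decide whether the numbers pair the libraries. With the replicate block 7 members were called, all of them higher, and 0 nuclear genes of the lists. In that fit 416 of 13692 genes were called in all, 131 higher and 285 lower. The exact sign-flip test of the share gave p = 0.25 (the smallest 3 pairs allow). With 2 libraries left in a group an exact test cannot go below 0.2. The cause of these changes was not tested. The planned ratio of ribosomal RNA to mRNA and the share without ribosomal RNA were not run, since all 13 members are protein-coding. For mt-Nd6, the member with the fewest counts (681 to 4360 per library), the spread between libraries was wider than the counting intervals.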

Other observations

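Regulators, stress genes and mitophagy genes, which are part of the nuclear lists compared above, gave the following values. With all libraries, TMM and the filter, edgeR called none of them. DESeq2 called Myc and Gdf15 lower and Bnip3 higher, and Gdf15 was also called lower by edgeR with library totals and with no filter and by limma on FPKM. Of 16 regulators of mitochondrial biogenesis 0 were higher and 2 lower at an unadjusted edgeR p under 0.05, against 10.4% and 13.1% of all genes. Myc had 7.66, 8.60 and 17.8 CPM in the libraries labelled ECKO, against 97.4, 20.4 and 44.6 CPM in f/f (log2 fold change -2.25, adjusted p = 0.0962). Its highest value lay in f/f library 1, the f/f library with the highest mitochondrial share. Esrrg had a log2 fold change of -1.13, Ppargc1a, a coactivator of mitochondrial biogenesis, -1.16 and Gabpb1 0.31 (adjusted p 0.109 to 0.279). Ppargc1a was scarce in LSECs, at 0.999, 0.174 and 0.688 CPM in the libraries labelled ECKO, against 1.05, 2.06 and 1.04 CPM in f/f.

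Of 16 tested genes of mitochondrial stress and sensing of mitochondrial nucleic acid, 3 were higher and 1 lower at an unadjusted edgeR p under 0.05. The shares of all genes were 10.4% higher and 13.1% lower. Gdf15, a stress-induced cytokine, had 0.333, 1.05 and 0.803 CPM in the libraries labelled ECKO, against 3.39, 2.26 and 2.15 CPM in f/f (log2 fold change -1.81, adjusted p = 0.0620), and Trib3, Atf5 and Clpp had 0.96, 0.47 and 0.32 (adjusted p 0.112 to 0.208). Of 10 mitophagy genes, 2 were higher at an unadjusted edgeR p under 0.05, against 10.4% of all genes. Bnip3, a mitophagy receptor, had 38.5, 43.3 and 30.3 CPM in the libraries labelled ECKO, against 24.1, 28.3 and 23.9 CPM in f/f (0.56, adjusted p = 0.0835), with Sqstm1 at 0.25, Bnip3l at 0.21 and Fkbp8 at 0.16 (adjusted p 0.195 to 0.384).

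Immediate early genes, a sign of handling, took 0.886%, 0.878% and 1.12% of the counts outside the mitochondrial genes in the libraries labelled ECKO, against 1.69%, 0.579% and 1.69% in f/f, and 16388, 16564 and 16493 genes had counts in the libraries labelled ECKO, against 17484, 17628 and 17699 in f/f. Their part in the mitochondrial share was not tested.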
